A study of Mus musculus with 6 samples.

Results

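The mRNA levels of 10 genes of the cytotoxic granule were followed in splenic natural killer (NK) cells with conditional deletion of Mettl3 and in control NK cells. Mettl3 encodes METTL3, the enzyme that writes the m6A mark on mRNA. The 10 genes were chosen by gene symbol, with earlier results of these data known, and all were found among the 14490 genes measured. They are the granzymes Gzma, Gzmb, Gzmc, Gzmk and Gzmm, the pore-forming protein gene Prf1 and the proteoglycan core gene Srgn. The others are the cathepsin genes Ctsc and Ctsw and the granzyme B inhibitor gene Serpinb9. NK cells were sorted from the spleens of C57BL/6 mice aged 6 to 10 weeks, with 3 samples per genotype. WT mice are given as Mettl3fl/fl with no Cre named, and cKO mice as Ncr1Cre-Mettl3fl/fl. Thus both genotypes carried the floxed Mettl3 allele, and cKO mice in addition carried Cre in the Ncr1 locus, which is active in NK cells and in other NKp46+ innate lymphoid cells. No tumor, cytokine or other treatment is given in the labels for these mice. The labels do not say whether the samples came from separate mice, so the p-values below measure the spread between these samples, which may be technical.

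NK cells kill by releasing preformed lytic granules onto a target cell. Perforin opens the target membrane, and granzymes, a family of serine proteases, enter and cleave proteins inside the target cell. Inside the granule the proteases are held on the sugar chains of serglycin, the product of Srgn. Granzymes are made as inactive precursors that cathepsin C, a dipeptidyl peptidase, trims into active enzymes. Serpinb9 is a cytosolic serpin that protects the killer cell from its own granzyme B. Resting mouse NK cells are known for abundant granzyme B and perforin mRNA with little of the matching protein until they are stimulated. Only mRNA was measured here.

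The deposited value of a gene is its count divided by the size factor of the sample, called the normalized count below. Between 55965515 and 71464042 reads fell on the listed genes per sample. Mettl3 itself was at 1303, 1258 and 1192 normalized counts in WT samples 1 to 3 and at 297, 299 and 405 in cKO samples 1 to 3. It was lower in every cKO sample, as the labels state, with a log2 fold change of −1.92 ± 0.0986 (SE) and an adjusted p of 2.32e-14 (limma). Of 14490 genes, 2576 were higher and 2731 were lower in cKO samples at an adjusted p under 0.05 (limma). With samples scaled to equal totals this split became 3487 higher and 2016 lower. All 8 NK marker genes were detected, and their summed level was 386805 to 398386 normalized counts in WT and 386430 to 400308 in cKO samples. This sum hides changes in both directions, with 2 of the genes higher and 4 lower in cKO samples. Its largest part was Il2rb, which rose from a mean of 170370 to 187594.

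Several of the granule genes lie close together in the genome. In GRCm38, Gzmb (chr14:56258838-56262260, minus strand) and Gzmc (chr14:56231441-56234656, minus strand) are 24.2 kb apart in a cluster of granule proteases. Gzma (chr13:113093825-113100981, minus strand) and Gzmk (chr13:113171608-113225908, minus strand) are neighbours 70.6 kb apart. Prf1 (chr10:61297833-61304680, plus strand) and Srgn (chr10:62493833-62527451, minus strand) are 1.19 Mb apart, and Gzmm (chr10:79689020-79695261, plus strand) lies farther along the same chromosome. Ctsc is at chr7:88278085-88310888 (plus strand), Ctsw at chr19:5465043-5468507 (minus strand) and Serpinb9 at chr13:33003250-33017957 (plus strand). Mettl3 lies 3.93 Mb from Gzmc on chromosome 14. The deposited values are sums over whole genes, so exons, introns and UTRs are not separated.

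The promoters of 3 of these genes are shown because Gzmb and Gzmc are cluster neighbours with unlike results below, and because Prf1 encodes the pore that granzymes need. RefSeq promoters were matched for 9 of the 10 genes, all but Ctsw. Each run is the 250 bases before the start in RefSeq (GRCm38.p6), written 5′ to 3′ on the strand of the gene, at chr14:56262335-56262584 for Gzmb, chr14:56234658-56234907 for Gzmc and chr10:61297586-61297835 for Prf1. Capitals mark the letters TGTGGT (or ACCACA on the other strand), as RUNX factors bind, and TGACGT (or ACGTCA), as factors of the CREB and ATF family bind.
Gzmb: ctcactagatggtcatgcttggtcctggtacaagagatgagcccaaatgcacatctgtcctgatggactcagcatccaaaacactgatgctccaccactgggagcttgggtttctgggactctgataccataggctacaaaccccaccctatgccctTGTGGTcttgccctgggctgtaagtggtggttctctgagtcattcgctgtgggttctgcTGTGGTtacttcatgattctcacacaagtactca
Gzmc: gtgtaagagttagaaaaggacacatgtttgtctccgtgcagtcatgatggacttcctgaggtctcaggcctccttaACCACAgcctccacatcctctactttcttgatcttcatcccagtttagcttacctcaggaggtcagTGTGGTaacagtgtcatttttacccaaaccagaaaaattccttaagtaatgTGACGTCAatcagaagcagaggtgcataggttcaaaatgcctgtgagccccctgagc
Prf1: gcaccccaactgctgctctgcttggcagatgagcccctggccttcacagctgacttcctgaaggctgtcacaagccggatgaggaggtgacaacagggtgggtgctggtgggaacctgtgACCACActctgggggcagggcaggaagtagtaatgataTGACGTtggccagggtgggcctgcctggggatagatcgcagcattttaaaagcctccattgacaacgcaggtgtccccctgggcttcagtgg

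The RUNX letters occurred 2 times each in the Gzmb and Gzmc promoters and 1 time in the Prf1 promoter. They also occurred in Gzma, at the first listed start of Gzmm and at the second listed start of Srgn. They were found in 14.0% of 32851 mouse promoters of this length. The CREB and ATF letters were found in 6.47% of promoters. They occurred in Gzmc, as the palindrome TGACGTCA that reads alike on either strand, in Prf1 and at the second listed start of Srgn. They did not occur in the Gzmb window. That window starts at 56262335, apart from the Gzmb gene end at 56262260 given above, and the bases between were not searched. Letters bound by T-box factors (GGTGTG, in 16.3% of promoters) and by ETS factors (CCGGAA, in 12.0%) were also searched on either strand. The T-box letters occurred in the promoters of Gzmk, Ctsc and Serpinb9 and at the second listed start of Gzmm, and the ETS letters occurred in Gzmk and at the first listed start of Srgn. The motifs were chosen after these sequences were seen, and a match is a description of letters, not of binding.

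In WT NK cells the granule genes ranged from among the highest mRNAs of the cell to the level of a median gene. Levels between genes are compared as normalized counts per kb of the longest protein-coding transcript, as in the plot of levels by gene. Gzma, a tryptase-like granzyme, stood highest at 268336 per kb. It was followed by Gzmb at 98606 per kb, Prf1 at 56417, Ctsw at 41994, Srgn at 34737, Serpinb9 at 16548 and Ctsc at 2684 per kb. The other 3 granzymes were far lower, with Gzmm at 549, Gzmc at 425 and Gzmk at 315 per kb. In WT samples no neighbours in this order overlapped. In cKO samples the order was the same down to Gzmm, at 368 per kb, but below it Gzmk, at 302, came before Gzmc, at 268 per kb. The ranges of Gzmm and Gzmk overlapped in cKO samples, as did those of Gzmk and Gzmc.

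**Figure D1:**
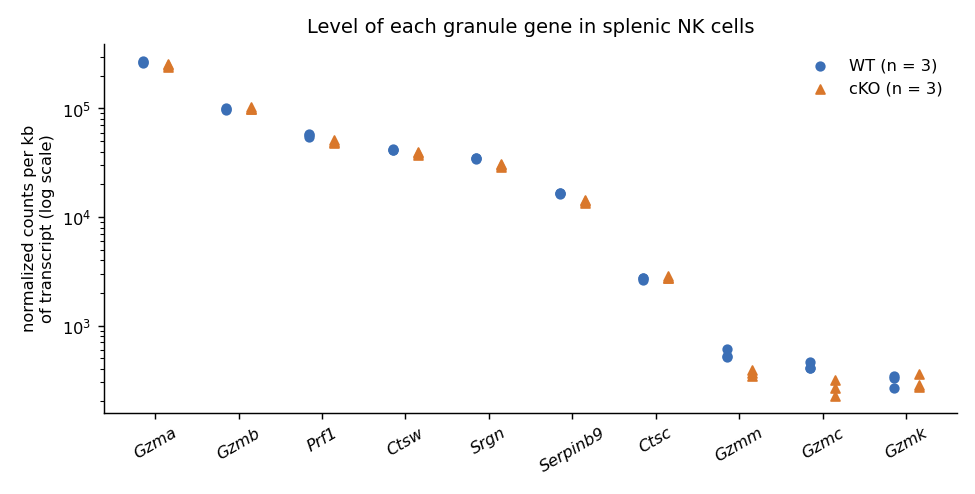
Normalized counts per kb of transcript (log scale) of the 10 granule genes, ordered by the mean of WT, with a point for each of 3 WT and 3 cKO samples. Gzma, Gzmb and Prf1 lead in both genotypes, and Gzmm, Gzmc and Gzmk lie below the other 7 genes in every sample.

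Against the 14105 genes with a known transcript length, the mean level per kb over all samples placed Gzma above 99.97% of genes, Gzmb above 99.8%, Prf1 above 99.3% and Ctsw above 99.1%. Srgn, Serpinb9 and Ctsc stood above 98.9%, 97.9% and 88.5% of genes on this scale. Gzmm, Gzmc and Gzmk, above 56.3%, 50.7% and 48.4%, were expressed like the median gene.

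Most granule genes had lower normalized counts, a relative measure, in METTL3-deficient NK cells. Gzmc fell by 37.3% and Gzmm fell by 32.8%, and of the other 5 genes that passed Gzma fell by 7.05%, the least, and Serpinb9 fell by 15.8%, the most. At an adjusted p under 0.05 (limma, all genes), 7 of 10 granule genes were lower in cKO samples, 0 were higher and 3 did not pass. Of all genes 36.6% passed, 18.8% as lower and 17.8% as higher. The 10 genes were chosen with earlier results of these data known, and most of them lie far above the median gene in level. The shares over all genes are thus not those of genes of like level. The log2 fold changes of the 7 genes ran from −0.67 for Gzmc to −0.11 for Gzma. With samples scaled to equal totals, which sets the sum over listed genes alike in every sample, 6 granule genes were lower and 2 were higher. The median log2 fold change was −0.15 over the 10 genes and 0.0014 over all genes, and the median size of the change, regardless of sign, was 0.15 and 0.17. A negative fold change was found for 8 of the 10 genes. The study's methods apply to DESeq2 results a rule of an unadjusted P under 0.05 with a log2 fold change beyond 1 in size. With the limma values put into this rule, none of the 10 met it, and 1.75% of all genes did. Fewer cells of a kind and less RNA per cell cannot be told apart in these sorted populations.

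The groups did not overlap for 8 of the 10 granule genes, with cKO below WT for 7 of them. Of all genes, 23.0% had every cKO sample below every WT sample. For each of these 8 genes an exact permutation test, two-sided and over all 20 ways to assign the samples, gave p = 0.1, the smallest that 3 against 3 allows. Within each genotype the order of the samples was alike for most of these genes. Sample 2 was the highest of the cKO samples for 9 of 10 genes and sample 3 the lowest for 8, and sample 2 was the highest of the WT samples for 8 and sample 3 the lowest for 7. With equal totals these counts were 8, 7, 8 and 6.

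**Figure D2:**
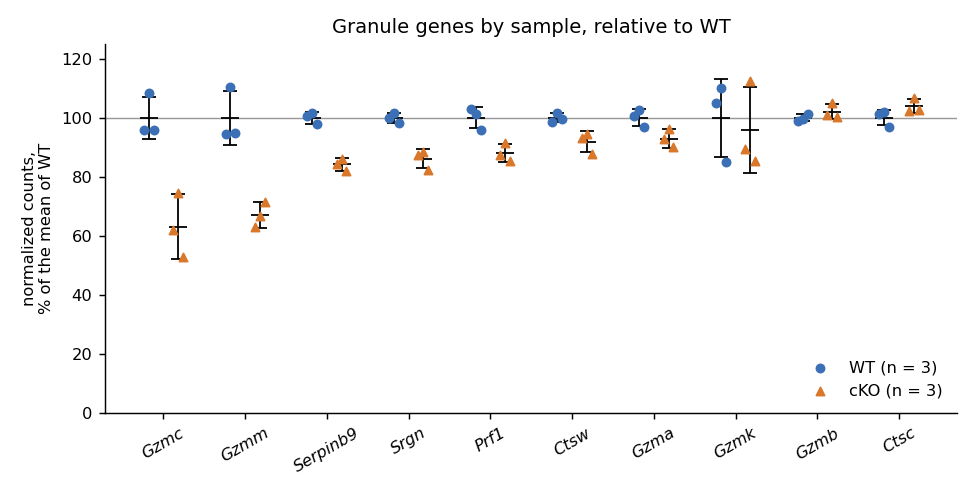
Normalized counts of each granule gene in each of 3 WT and 3 cKO samples, as a percentage of the mean of WT, with the mean and SD of each group as bars. Gzmc and Gzmm fell farthest, Serpinb9, Srgn, Prf1, Ctsw and Gzma lay lower in cKO by smaller amounts, and Gzmk, Gzmb and Ctsc were close to the WT level.

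Gzmb, the caspase-like granzyme that cuts after aspartate and is a standard marker of cytotoxic cells, was at 140217, 140995 and 143584 normalized counts in WT and at 142708, 148510 and 141927 in cKO samples. The groups overlapped, and cKO sample 2 was the highest of the 6. The log2 fold change was 0.03 with a 95% confidence interval from −0.03 to 0.09 (limma, adjusted p = 0.506), a difference between −2.28% and 6.37% of the WT level. This interval excludes a change as large as that of Prf1 or Serpinb9 below. With equal totals, however, Gzmb passed as higher in cKO, with a log2 fold change of 0.078 (adjusted p = 0.0203, limma).

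Gzma, which cuts after basic residues, was at 268547, 274187 and 259054 normalized counts in WT and at 247926, 256909 and 240514 in cKO samples. The cKO samples all lay below the WT samples, with cKO sample 2 and WT sample 3 nearest each other. Gzma fell by 7.05% (log2 fold change −0.11 ± 0.0325 SE, adjusted p = 0.0119, limma). This call was lost with equal totals (log2 fold change −0.056, adjusted p = 0.115), with a correction for GC content and length (−0.032, adjusted p = 0.345), and without WT sample 2 (−0.087, adjusted p = 0.0613), cKO sample 1 (−0.10, adjusted p = 0.0631) or cKO sample 3 (−0.082, adjusted p = 0.0724). The fold change stayed negative under every alternative run.

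Gzmc belongs to the part of the granzyme B cluster that is known to be induced late after lymphocyte activation. It was at 364, 412 and 364 normalized counts in WT and at 236, 284 and 200.3 in cKO samples. It thus fell by 37.3%, farther than any other of the 10 genes (log2 fold change −0.67, 95% confidence interval −0.94 to −0.41, adjusted p = 0.000157, limma). Across all alternatives its log2 fold change stayed between −0.80 and −0.55, with adjusted p-values up to 0.00161 (limma). Its rank before Gzmm was not stable, as without cKO sample 3 the log2 fold change was −0.55 for Gzmc and −0.62 for Gzmm. Of the 845 windows of 50 bases in its transcript, 35 (4.14%) are also found in Gzmd, Gzme or Gzmg transcripts, and no window of 150 bases is shared, so that few reads could have been split with these paralogs.

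Gzmm, a granzyme that prefers methionine and is typical of innate killer cells, was at 667, 780.4 and 670.4 normalized counts in WT and at 444, 471 and 505 in cKO samples. The groups were well apart. Gzmm fell by 32.8% (log2 fold change −0.57, 95% confidence interval −0.76 to −0.39, adjusted p = 1.21e-05, limma). Its log2 fold change ran from −0.62 to −0.50 across the alternatives.

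Gzmk, a second tryptase-like granzyme beside Gzma on chromosome 13, was at 432, 452 and 349 normalized counts in WT and at 368, 463 and 351 in cKO samples. The groups overlapped along almost their whole length, and sample 2 was highest in both genotypes. The log2 fold change was −0.063 with a 95% confidence interval from −0.31 to 0.18 (limma, adjusted p = 0.721). A change of the size seen for Gzmc or Gzmm lies outside this interval, but one of the size seen for Prf1 does not. The sign turned to positive when WT sample 2 (0.0093) or cKO sample 3 (0.014) was left out.

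The mix of granzyme mRNAs was therefore slightly shifted. As a share of the granzyme sum per kb within each sample, Gzmb made up 26.5%, 26.2% and 27.7% in WT and 28.5%, 28.5% and 29.0% in cKO samples. Gzma made up 72.9% ± 0.765 of the sum in WT samples and 71.1% ± 0.269 in cKO samples (SD, n = 3 each). The share of Gzmb was higher and that of Gzma lower in every cKO sample. Both genes together made up nearly the whole sum, so these opposite shifts are not separate observations. Gzmm fell from 0.149% to 0.105% and Gzmc from 0.115% to 0.0762% on average, again without overlap, whereas the share of Gzmk was 0.0855% in WT and 0.0859% in cKO with overlapping samples. Such shares do not depend on how samples are scaled to each other, and they were not tested. The shares of Gzma and Gzmb largely restate the ratio of Gzma to Gzmb, which differed by −8.87% in cKO samples. With GC and length taken into account, this difference was −5.76%.

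Prf1, which encodes perforin, was at 143566, 141288 and 133874 normalized counts in WT and at 121963, 127554 and 118962 in cKO samples. Every cKO sample lay below every WT sample. Prf1 fell by 12.0% (log2 fold change −0.18, 95% confidence interval −0.25 to −0.12, adjusted p = 6.28e-05, limma). Under all alternatives the log2 fold change was between −0.21 and −0.13, and the adjusted p stayed at or below 0.00158.

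Srgn, whose protein carries the sugar chains that hold granzymes and perforin in the granule, was at 59989, 61050.2 and 58931 normalized counts in WT and at 52403, 53119 and 49427 in cKO samples. The gap between the groups was wider than the range within either. Srgn fell by 13.9% (log2 fold change −0.22, 95% confidence interval −0.28 to −0.15, adjusted p = 3.63e-06, limma), and by 0.17 to 0.24 on the log2 scale across the alternatives.

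Serpinb9 was at 57778, 58399.6 and 56181 normalized counts in WT and at 48466, 49470.4 and 47134 in cKO samples. The 2 genotypes were clearly separated. Serpinb9 fell by 15.8% (log2 fold change −0.25, 95% confidence interval −0.31 to −0.19, adjusted p = 2.10e-07, limma), the smallest adjusted p among the 10 genes, and its log2 fold change stayed between −0.27 and −0.20 in the alternatives. Only 13 of its 3423 windows of 50 bases (0.380%) are shared, with Serpinb9b, a paralog in the same serpin cluster.

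The cathepsin genes diverged. Ctsw, a cathepsin found mainly in NK and cytotoxic T cells and of unclear function, was at 51444, 52982 and 51918 normalized counts in WT and at 48517, 49266 and 45785 in cKO samples. All cKO samples were below the WT samples, and Ctsw fell by 8.21% (log2 fold change −0.12, 95% confidence interval −0.19 to −0.060, adjusted p = 0.00248, limma). With equal totals its log2 fold change was −0.074 (adjusted p = 0.0395, limma).

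Ctsc, the gene of the granzyme-activating peptidase, was at 8739.8, 8805 and 8387 normalized counts in WT and at 8856, 9225 and 8861 in cKO samples. Here every cKO sample was above every WT sample, if narrowly. The log2 fold change of 0.055 (95% confidence interval −0.016 to 0.13) did not pass (adjusted p = 0.228, limma). It passed as higher with equal totals (0.10, adjusted p = 0.0125) and with the replicate block and GC correction together (0.079, adjusted p = 0.0478). The ratio of Ctsc to Ctsw within a sample, which no scaling touches, was 0.170, 0.166 and 0.162 in WT and 0.183, 0.187 and 0.194 in cKO samples, and thus 13.2% higher in cKO samples.

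**Figure D3:**
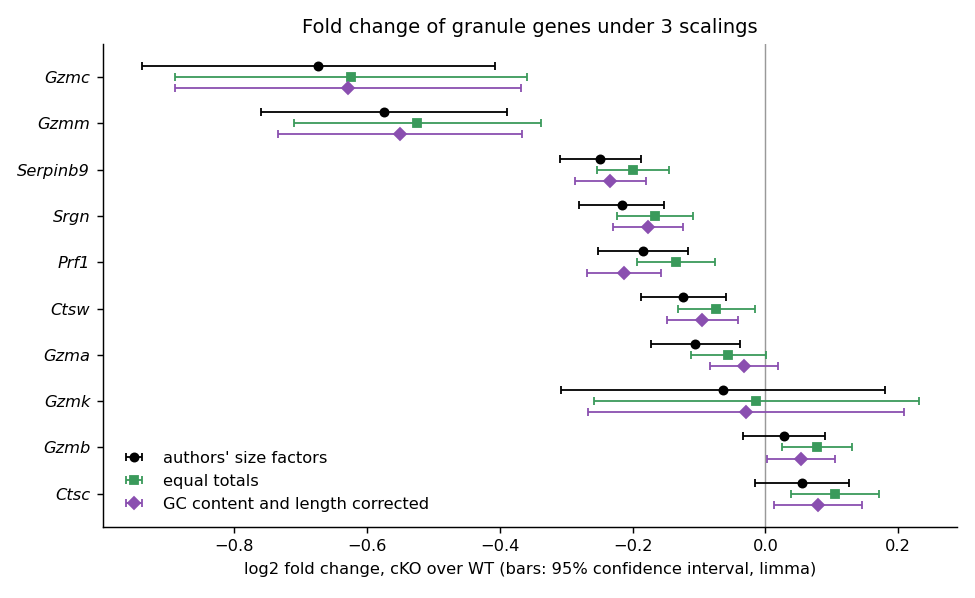
Log2 fold change (cKO over WT) of each granule gene with its 95% confidence interval from limma, with the size factors of the authors, with equal totals and after correction for GC content and length. The intervals of Gzmc, Gzmm, Serpinb9, Srgn, Prf1 and Ctsw stay below 0 under all 3, that of Gzma reaches 0 under equal totals and the correction, and those of Gzmb and Ctsc move above 0.

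The proportions of granule mRNAs within a sample are given relative to Gzmb. Gzmb was taken because it had not passed the test, so these ratios restate the fold changes above, free of the scaling between samples, and they are a description with no test. The ratio of Prf1 to Gzmb was 1.02, 1.002 and 0.932 in WT and 0.855, 0.859 and 0.838 in cKO samples, a difference of −13.7%. The ratio of Srgn to Gzmb was 0.428, 0.433 and 0.410 in WT and 0.367, 0.358 and 0.348 in cKO samples (−15.6%). Serpinb9, the inhibitor, was at 0.412, 0.414 and 0.391 of the Gzmb count in WT and at 0.340, 0.333 and 0.332 in cKO samples (−17.5%). The ratio of Gzma to Gzmb differed by −8.87%, and by −5.76% after the GC and length correction.

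Ratios among the genes that fell depended on the correction for GC content and length. Serpinb9 to Prf1 was 0.402, 0.413 and 0.420 in WT and 0.397, 0.388 and 0.396 in cKO samples, a difference of −4.37% that became −1.46% with the correction. Gzma to Prf1 was 5.61% higher in cKO samples and 13.3% higher with the correction. Srgn to Prf1 differed by −2.21% and, with the correction, by 2.46% in the other direction. These ratios share genes and were not tested.

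**Figure D4:**
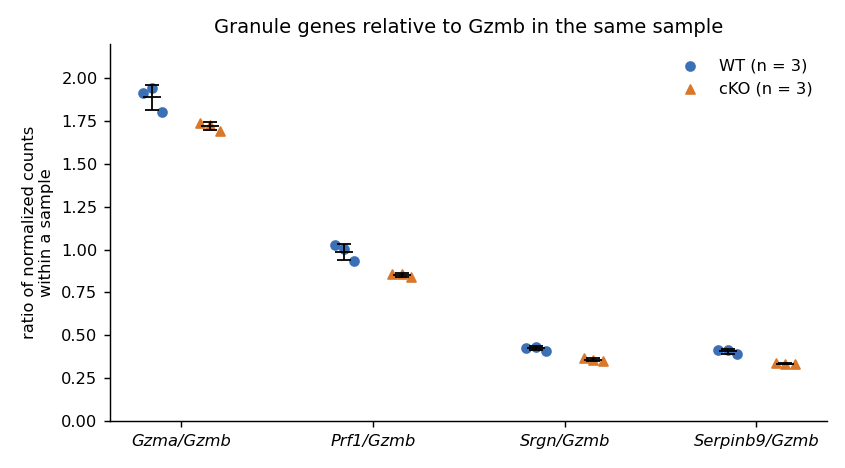
Ratio of the normalized count of Gzma, Prf1, Srgn and Serpinb9 to that of Gzmb in the same sample, for 3 WT and 3 cKO samples, with the mean and SD of each group as bars and no length correction. In every ratio the 3 cKO samples sit below the 3 WT samples, with mean differences from −8.87% for Gzma to −17.5% for Serpinb9.

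METTL3 methylates adenosines in a short sequence context with the core GGAC. This core, where followed by T, A or C, was counted in the longest protein-coding transcript of each gene. Gzmb held 11 such sequences (7.66 per kb, above 97.2% of 14105 transcripts), Ctsw 8 (6.45 per kb), Prf1 14 (5.66 per kb) and Serpinb9 12 (3.46 per kb). Gzmm held 5 (3.88 per kb), Gzma 3 (3.01), Srgn 5 (2.90), Gzmk 3 (2.30), Ctsc 7 (2.17) and Gzmc 1 (1.12 per kb, above 4.63% of transcripts). The 3 genes that did not pass the test, Gzmb, Gzmk and Ctsc, stood at the top and near the bottom of this order. At least 1 such sequence was found in 97.6% of transcripts, and the median was 3.53 per kb. Methylation itself was not analysed here.

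Genes around the granule were read from lists of the same fit. Of 57 listed genes outside the 10, 28 passed at an adjusted p under 0.05 (limma), 18 as higher and 10 as lower in cKO samples, beside 36.6% of all genes. Among 14 genes of the granule membrane and other lysosomal content, 4 were higher, 2 were lower and 8 did not pass, with a median log2 fold change of 0.017. Nkg7, which encodes a granule membrane protein needed for degranulation and which had the highest mean count of this list, fell from 83428 ± 3832 to 66098 ± 2347 normalized counts (SD, n = 3 each, log2 fold change −0.34, adjusted p = 1.03e-08, limma). Calr, the gene of calreticulin, which also accompanies perforin in the granule, was lower as well (−0.12, adjusted p = 0.0021, limma). The largest rise was that of Gusb, the lysosomal beta-glucuronidase gene, from 1852 to 2385 (0.37, adjusted p = 1.48e-06, limma). The lysosomal cathepsin genes Ctsz (0.19), Ctss (0.16) and Ctsd (0.086) were also higher on the log2 scale, but the Ctsd call held in only 8 of the 14 alternatives and was lost with the GC and length correction (adjusted p = 0.0703, limma).

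Sugar chains are added to serglycin by a series of enzymes, and 15 of the 16 listed genes of that synthesis were measured. Of these, 9 were higher, 1 was lower and 5 did not pass, with a median log2 fold change of 0.25, whereas Srgn was lower. Chst3, a chondroitin sulfotransferase gene, showed the largest rise, from 21.8, 30.9 and 27.3 normalized counts in WT to 73.2, 74.5 and 67.7 in cKO samples (log2 fold change 1.41, adjusted p = 0.000431, limma). Chsy1, a chondroitin synthase gene with the highest mean count of the list, rose from 29836 ± 482 to 35408 ± 489.5 (SD, n = 3 each, log2 fold change 0.25, adjusted p = 1.74e-07, limma). Csgalnact2, which starts the chondroitin chain, was lower (−0.18, adjusted p = 0.0213, limma), a call that held in 9 of the 14 alternatives and was lost with equal totals (adjusted p = 0.0930). With equal totals 9 were higher and 0 lower.

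Inhibitors of granule proteases were mostly lower. Of 10 measured genes of a list of 17, 6 were lower, 1 was higher and 3 did not pass, with a median log2 fold change of −0.19, and with equal totals 5 were lower and 2 higher. Serpinb9b, a close relative of Serpinb9, was at 6303, 6172 and 6009.6 normalized counts in WT and at 2682, 2737 and 2685 in cKO samples. It fell most of the list (log2 fold change −1.19, adjusted p = 3.24e-18, limma). Serpinb6b, with the highest mean count of the list, fell from 34887 to 29548 (−0.24, adjusted p = 1.27e-06, limma). Cst7, the gene of cystatin F, which inhibits cathepsin C, fell from 7986 to 6413 (−0.32, adjusted p = 4.62e-08, limma). The gene that rose was Serpina3f, from 1009 to 1463 (0.53, adjusted p = 4.07e-07, limma).

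**Figure D5:**
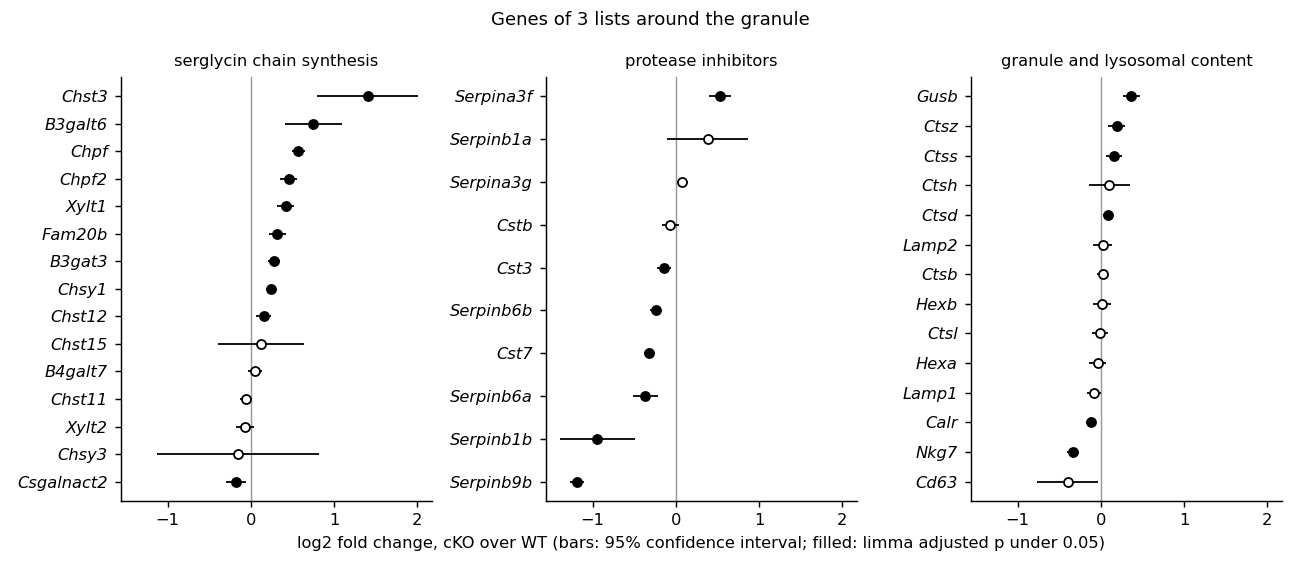
Log2 fold change (cKO over WT) of the genes of 3 lists around the granule, with 95% confidence intervals from limma and filled points where the adjusted p is under 0.05. Most filled points lie above 0 for serglycin chain synthesis (9 of 10) and below 0 for protease inhibitors (6 of 7), and Nkg7 and Calr are the filled points below 0 among granule and lysosomal content.

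Of the granzyme neighbours, 2 of 11 were in the table, the chymase gene Cma1 and the basophil protease gene Mcpt8, and neither passed. Cma1, which had the higher mean count, was at 10995 in WT and 10543 in cKO samples (log2 fold change −0.060, adjusted p = 0.218, limma). Gzmd, Gzme, Gzmf, Gzmg, Gzmn, Ctsg, Mcpt1, Mcpt2 and Mcpt4 were not among the listed genes. Of 6 genes that sort granzymes to the granule through mannose 6-phosphate, only Igf2r, a receptor for that tag, passed, rising from 8766 to 10018 (0.19, adjusted p = 3.85e-05, limma). M6pr, a receptor gene with the highest mean count of the list, was at 16742 in WT and 16911 in cKO samples.

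Transcription factors known to act on granule genes did not share a direction. Of 7 activators, Prdm1 (log2 fold change 0.27, adjusted p = 9.01e-07) and Tbx21 (0.23, adjusted p = 5.47e-07), the gene of T-bet, were higher, and Stat5a was lower (−0.22, adjusted p = 0.000342, limma for all 3). Eomes, with the highest mean count, was at 42974 ± 1216 normalized counts in WT and 42661 ± 380.7 in cKO samples (SD, n = 3 each, adjusted p = 0.828, limma). Of 3 restrainers, Foxo1 was higher (0.24, adjusted p = 1.27e-05, limma), and Tcf7 and Bach2 did not pass.

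Markers of other cells and of NK maturation were read beside these results, and their part in them was not tested. Of 8 NK markers, 2 were higher and 4 were lower, with the largest rise for Tbx21 and the largest fall for Ncr1 (log2 fold change −0.40), the locus that carries Cre in cKO mice. Markers of less mature NK cells (3 higher and 1 lower of 9) summed to 109969 to 115712 normalized counts in WT and 113857 to 119308 in cKO samples, with the largest changes for Cxcr3 (0.81) and Kit (−0.53). Markers of mature NK cells (3 higher and 1 lower of 8) summed to 119981 to 124319 and 123579 to 127606, with the largest changes for Cx3cr1 (0.54) and Klrg1 (−0.55). So neither maturation list moved in 1 direction.

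Markers of other cell types were also detected, and whether they came from other cells was not tested. The 8 B cell markers summed to 1365 to 1395 normalized counts in WT and 1833 to 1909 in cKO samples, with 6 higher and 0 lower. Of 10 T cell markers 3 were lower, and with equal totals 2 were lower and 2 higher. Cd6 had the largest fall (−0.84), at 57.5 and 32.3 mean normalized counts in WT and cKO, a call lost with equal totals (adjusted p = 0.0531, limma), and Cd3g fell from 802 to 478 (−0.75, adjusted p = 4.50e-08, limma). The sum of the list was 21926 to 23326 in WT and 20311 to 21537 in cKO samples, mostly from Trbc1, while Cd3e was at 151 in WT and 166 in cKO samples on average. The 6 myeloid markers summed to 7129.9 to 7725 and 7079.9 to 7884, with 3 higher and 1 lower. The largest changes were those of Cd14 (0.46), a call lost in 4 of the 14 alternatives with adjusted p-values up to 0.171 (limma), and Lyz2 (−0.40). None of the 7 ILC1, 3 mast cell and basophil and 5 erythroid markers in the table passed. The ILC1 markers, from cells that also express Ncr1, summed to 1572 to 1756 in WT and 1608 to 1737 in cKO samples, the mast cell and basophil markers to 306 to 385 and 309 to 349, and the erythroid markers to 811 to 869.9 and 684 to 832.

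Immediate early genes, which respond to cell handling as well as to activation, summed to 2.02e+06 to 2.06e+06 normalized counts in WT and 2.16e+06 to 2.22e+06 in cKO samples. Of 8 such genes 3 were higher and 2 lower, and with equal totals 5 were higher and 1 lower, with Fos rising (log2 fold change 0.82) and Fosb falling (−0.23). The mean normalized counts of Fosb alone were 656782 in WT and 559615 in cKO samples.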

How the data were processed

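NK cells sorted from spleens of 3 WT and 3 cKO samples were profiled by polyA mRNA-seq. The authors used HISAT2 (GRCm38) for alignment and featureCounts 1.5.0-p3 for gene counts, and divided these counts by DESeq2 size factors (the submitters' processing notes give DESeq2 1.16.1). The signal the authors deposited is this normalized count, and the authors' own comparison columns (fold change, error, statistic and p-values) were not used. Strand is not given in the sources used here, so antisense reads cannot be told apart.

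Values were taken as log2(value + 1). A filter of at least 1 in at least 3 samples removed no gene. Genotype was fitted with limma 3.58.1 in R 4.3.3 allowing a trend of variance with level, and two-sided p-values were adjusted (Benjamini-Hochberg) across the 14490 genes and called under 0.05. Fold changes are on the log2(value + 1) scale, which understates changes of low genes. In each sample all values were whole multiples of the worth of 1 read (within 0.05 read), which gave the read totals. Positions and lengths are from GENCODE for GRCm38, which matched 97.3% of names. Of the steps, the limma fit was tried on simulated counts, and the outcome is not reported here. These counts had the same setting of spread for every gene and no order shared between genes, unlike the real samples.

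The members and lists were chosen with earlier results of these data known. All members were named. From each list the called genes with the largest rise and fall were named, and from each pathway list also the gene with the highest mean. A gene this rule names among the B cell markers is not reported here. Tbx21, Il2rb, Calr, Cst7, Ctsz, Ctss, Ctsd, Trbc1, Cd3e, Cd3g, Mcpt8 and Bach2 were named after their values were seen. The alternatives run were equal totals, limma-voom on the read counts that the steps give, a pseudocount of 0.1, omission of the filter or a stricter filter, a block for replicate number, omission of each sample in turn, and a correction for GC content and length with splines of 5 degrees of freedom over the 14105 genes with both properties.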

Additional observations from a re-analysis of the deposited data

How the results depend on the processing

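Over 14 alternatives, the 10 granule genes gave 140 results, of which 129 kept their direction and side of the threshold. Among these alternatives, omission of the filter repeated the main fit, as the filter removed no gene, so its results could not differ. Of the others, 6 were Gzma calls that were lost and 3 were calls gained, by Gzmb with equal totals and by Ctsc with equal totals and with the replicate block and GC correction. The other 2 were reversals of Gzmk when WT sample 2 (log2 fold change 0.0093) or cKO sample 3 (0.014) was left out, within a range of −0.18 to 0.014 over the 6 omissions, and the cause was not tested. The granule genes that passed numbered 6 to 8 over all alternatives and 6 to 7 with a sample left out. All genes that passed numbered 5307, 5246 to 5543 under the other 8 alternatives and 4417 to 4922 with a sample left out, where fewer samples entered. Equal totals moved the median of all genes by 0.05 on the log2 scale. The correction for GC content and length, alone and with the block, was chosen after seeing the data, and with it 6 and 7 granule genes passed.

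Over all genes, samples with the same replicate number did not deviate together (correlations of −0.040, 0.056 and 0.038 for numbers 1 to 3). Not every sample correlated best with its own number. Among the granule genes, however, sample 2 was most often the highest and sample 3 most often the lowest in both genotypes. A block for replicate number lowered the SE of each granule gene, from 0.0325 to 0.0221 for Gzma and from 0.0328 to 0.0237 for Prf1. With the replicate number as a block, 5543 genes, 7 granule genes and 29 genes of the surrounding lists passed, against 5307, 7 and 28 without it. The planned count models on recovered reads, edgeR and DESeq2, were not run. The SD between samples was 1.36 to 3.11 times that of counting error alone for Gzmc, Gzmk and Gzmm and 2.30 to 16.9 times for the other 7 genes.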
